A study of Mus musculus with 2 samples.

Results

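Arginine metabolism was examined in cells sorted from the bones of ovariectomized (OVX) and sham-operated mice, through 8 genes chosen by name: Arg1, Arg2, Nos2, Slc7a2, Odc1, Ass1, Sat1 and Srm. All 8 were among the 32285 genes of the deposited matrix. The mice were female BALB/c animals, 10 weeks old at surgery, and their femurs and vertebrae were collected 4 weeks later. Bone lining cells with CD11b and either F4/80 or CD68 on their surface were sorted from 20 mice per condition, pooled, stained with hashtag antibody 1 for OVX and hashtag antibody 2 for sham, and sequenced together as 1 single-cell RNA library. Each condition was therefore 1 pool, and no difference between OVX and sham could be tested against a spread between replicates. All intervals below are 95% intervals that cover counting error only, and a level is the number of unique molecular identifiers (UMIs) of a gene per 1000000 UMIs of the summed cells (CPM).

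Arginine enters cells through cationic amino acid carriers such as CAT2, the product of Slc7a2, and is then shared between competing enzymes. Inducible nitric oxide synthase, the product of Nos2, turns it into nitric oxide and citrulline, and argininosuccinate synthase, the product of Ass1, starts the return of citrulline to arginine. The arginases, cytosolic for Arg1 and mitochondrial for Arg2, split arginine into urea and ornithine. Ornithine decarboxylase, the product of Odc1, makes the first polyamine, putrescine, and spermidine synthase, the product of Srm, extends it. The acetyltransferase encoded by Sat1 marks polyamines for breakdown and export. In mouse macrophages, high Arg1 and high Nos2 are the usual marks of alternatively and classically activated cells.

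The genes lie apart in the genome (GENCODE annotation on GRCm38). Arg1 is at chr10:24915221-24927484 on the minus strand, Arg2 at chr12:79130777-79156301 on the plus strand, Nos2 at chr11:78920787-78960254 on the plus strand and Slc7a2 at chr8:40862396-40922308 on the plus strand. Odc1 is at chr12:17544794-17551505 on the plus strand, Ass1 at chr2:31470207-31520672 on the plus strand, Sat1 at chrX:155213132-155216449 on the minus strand and Srm at chr4:148591503-148594993 on the plus strand. Of the 8 members, Odc1, Ass1 and Sat1 matched the RefSeq promoter table used here (GRCm38.p6). The bases just before the annotated starts of Odc1 and Sat1 are shown because these enzymes act at opposite ends of the polyamine pathway and, as given below, differed in the cells that held them. Capitals mark matches to the GC box GGGCGG on either strand. The Odc1 stretch is chr12:17544623-17544793 on the plus strand and the Sat1 stretch is chr X, 155216450 to 155216699, on the minus strand, both written 5′ to 3′.
Odc1: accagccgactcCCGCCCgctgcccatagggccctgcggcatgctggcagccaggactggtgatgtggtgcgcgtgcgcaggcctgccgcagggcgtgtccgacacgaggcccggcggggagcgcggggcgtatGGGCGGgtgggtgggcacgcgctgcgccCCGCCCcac
Sat1: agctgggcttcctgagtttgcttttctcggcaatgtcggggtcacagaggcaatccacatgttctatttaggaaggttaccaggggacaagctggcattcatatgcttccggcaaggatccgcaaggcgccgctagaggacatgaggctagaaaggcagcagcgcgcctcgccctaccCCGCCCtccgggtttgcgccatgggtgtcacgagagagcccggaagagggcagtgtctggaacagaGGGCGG

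The Odc1 stretch held 3 GC boxes in 171 bases and was 77.2% G or C, and the Sat1 stretch held 2 in 250 bases at 59.6%. A GC box was present in 35.7% of all 32851 promoter windows of 300 bases in the table. Neither window held a TATA box (TATAAA), an E-box (CACGTG) or a cyclic AMP response element (TGACGTCA), which occurred in 13.6%, 7.15% and 1.79% of all windows. These matches describe the letters only.

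The library held 2349 barcodes and 17681092 UMIs, with a median of 4387 UMIs and a range from 500 to 141565. By hashtag counts, 1059 barcodes were OVX, 981 were sham, 78 were above the cutoff for both hashtags and 231 for neither. Cells were clustered with the arginine metabolism genes left out, so that the classes below did not rest on them. Of 10 clusters, 6 with 1889 cells were neutrophil-like, 1 with 210 cells was stromal-like, 1 with 63 cells was macrophage-like, 1 with 151 cells was cycling and 1 with 36 cells was left unnamed. Median depth was 3783 UMIs in neutrophil-like, 7743 in macrophage-like and 19996.5 in stromal-like cells.

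The classes departed from the sort. Macrophage-like cells held Msr1 at 1149 CPM, Cd36 at 386 CPM and Csf1r at 100 CPM, and 7 of the 13 macrophage markers were at 20 CPM or more, but C1qa, C1qb, C1qc and Vsig4 were at 0 and Adgre1, which encodes F4/80, was at 46.7 CPM. The same cells held neutrophil markers at a sum of 26933 CPM, against 282025 CPM in neutrophil-like cells. They also held 2 of 7 dendritic cell markers, Cd74 at 355 CPM and H2-Ab1 at 180 CPM. Of 5 monocyte markers, 4 were at 20 CPM or more in them. These were Ccr2 at 149 CPM, F13a1 at 79.6 CPM, Ly6c2 at 46.7 CPM and Csf1r, which is on both lists. Stromal-like cells were led by Prg4 at 25948 CPM and Dcn at 16513 CPM, with Adgre1 at 0. Of 9 stromal markers 8 were at 20 CPM or more. The collagen genes among them were low, Col1a1 at 17.0 CPM, Col3a1 at 22.3 CPM and Col1a2 at 42.6 CPM. Prg4 and Dcn gave a measure of free RNA: in neutrophil-like cells they were at 0.378% and 0.577% of their stromal-like level.

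The 8 genes divided among the classes. By a rule of at least 20 CPM and at least 2-fold over both other classes, Arg1 was highest in macrophage-like cells, and Nos2, Slc7a2, Odc1 and Srm were highest in stromal-like cells. That made 1 of 8 members in macrophage-like cells, where 8.65% of the 7155 genes at 20 CPM or more in a class were called, and 4 of 8 in stromal-like cells, where 25.2% were. In neutrophil-like cells 0 of 8 were called, beside 7.66% of all genes. Arg2 and Sat1 were highest in neutrophil-like cells by less than 2-fold over macrophage-like cells, and Ass1 was nearly level between stromal-like and macrophage-like cells. The neutrophil-like count was 1 or 2 under 7 of 11 other settings.

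**Figure D1:**
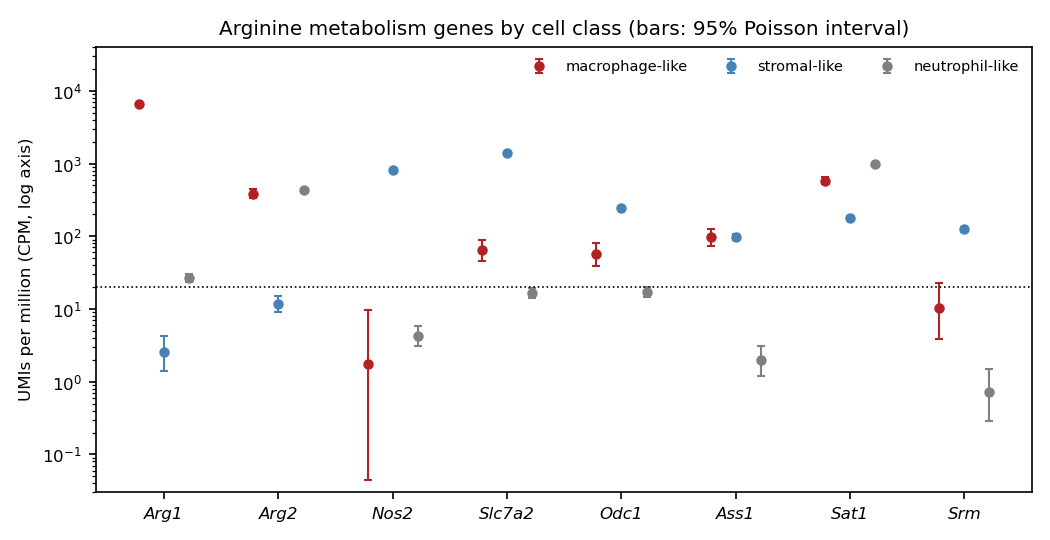
Level of each of the 8 genes in CPM (log axis) in macrophage-like, stromal-like and neutrophil-like cells; points are the summed cells of a class, bars the 95% Poisson interval, and the dotted line 20 CPM. Arg1 stands at 6642 CPM in macrophage-like cells alone, Nos2 and Slc7a2 at 819 and 1380 CPM in stromal-like cells, and Arg2 and Sat1 are low only in stromal-like cells.

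Arg1 was largely bound to macrophage-like cells. It was at 6642 CPM (95% interval 6434 to 6856, 3840 UMIs) in macrophage-like cells, 26.7 CPM (23.5 to 30.1, 257 UMIs) in neutrophil-like cells and 2.56 CPM (1.40 to 4.29, 14 UMIs) in stromal-like cells. Macrophage-like cells were 2.68% of all barcodes and held 92.8% of all Arg1 UMIs. Arg1 was detected in 51 of 63 macrophage-like cells (81.0%) and, with each cell thinned to 1000 UMIs, in 75.4% (62.7 to 85.5). Single macrophage-like cells ranged from 0 to 22183 CPM with a median of 4834 CPM, and the 5 cells with the most Arg1 gave 32.9% of the UMIs. The 14 UMIs in stromal-like cells came from 14 different cells, and stood at 0.0385% of the macrophage-like level, near Pf4, another gene of the macrophage-like cells, at 0.0468%. With 6 clusters the macrophage-like one widened to 139 cells, and its Arg1 level was 2643 CPM.

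Arg2 had another distribution than Arg1. Its level was 427 CPM (414 to 440) in neutrophil-like and 386 CPM (337 to 440) in macrophage-like cells, a ratio of 1.11 (0.966 to 1.27) whose interval included 1, and 11.7 CPM (9.004 to 14.9) in stromal-like cells. The neutrophil-like level was 36.5 times the stromal-like one (28.5 to 47.5). Of 1889 neutrophil-like cells, 1401 held Arg2 (74.2%), and 36.9% did at 1000 UMIs (34.7 to 39.2). No single cell mattered to this level, since the 5 highest gave 2.24% of the class's Arg2 UMIs. Arg2 in macrophage-like cells was at 90.4% of its neutrophil-like level. The neutrophil markers S100a8 and S100a9 there were at 10.3% and 8.51% of theirs, and S100a8 was at 22.3% in OVX and 5.41% in sham. Mmp8, on the same marker list, was higher in macrophage-like cells, at 1593 CPM against 1244 CPM. The part of neutrophil RNA in the macrophage-like Arg2 level was not tested. With the wider macrophage-like cluster of the 6-cluster partition Arg2 there was at 173 CPM, and Arg2 then passed 2-fold in neutrophil-like cells. In the 63 macrophage-like cells 47 held UMIs of both arginase genes, where independence would give 42.9. At 1000 UMIs both were in 15 cells, against 14.3.

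Among the 6 neutrophil-like clusters, each called here by its leading gene, Arg2 varied. It was highest in the Gm12840 cluster at 761 CPM (721 to 803) and lowest in the Ifitm6 cluster at 211 CPM (189 to 236), whose other leading genes, Ngp, Camp and Ltf, encode granule proteins of immature neutrophils. The Retnlg cluster, at 469 CPM (441 to 498), and the Gm42418 cluster, at 435 CPM (389 to 486), were neighbours with overlapping intervals, as were the Retnla cluster, at 324 CPM (304 to 346), and the Ecm1 cluster, at 298 CPM (255 to 347). Cycling cells, which also carried S100a8, held Arg2 at 45.8 CPM (36.7 to 56.3).

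Nos2 was high in stromal-like cells and nearly absent from neutrophil-like and macrophage-like cells. It was at 819 CPM in stromal-like cells (795 to 843, 4483 UMIs), at 4.25 CPM in neutrophil-like cells (3.05 to 5.77, 41 UMIs) and at 1.73 CPM in macrophage-like cells (0.0438 to 9.64, 1 UMI). The shallow unnamed cluster held it at 139 CPM (51.0 to 303), from 6 UMIs in 5 of 36 cells. Stromal-like cells held 98.8% of all Nos2 UMIs. Of 210 stromal-like cells 170 had a Nos2 UMI (81.0%), and 40.4% did at 1000 UMIs (33.5 to 47.6), whereas 1 of 63 macrophage-like cells had one. The neutrophil-like level was 0.519% of the stromal-like one, between the 0.378% of Prg4 and the 0.577% of Dcn. The source of the Nos2 UMIs in neutrophil-like cells was not tested. Over all classes 154 cells held Arg1, 222 held Nos2 and 21 held both, of which 14 were stromal-like cells with 1 Arg1 UMI each. Independence would give 14.6 cells with both, and at 1000 UMIs 1 cell held both, against 3.19.

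Slc7a2, which encodes the arginine carrier, followed Nos2. It was at 1380 CPM in stromal-like cells (1349 to 1412), 64.0 CPM in macrophage-like cells (45.1 to 88.2) and 16.4 CPM in neutrophil-like cells (13.9 to 19.2). The stromal-like level was 21.6 times the macrophage-like one (15.6 to 30.7). Slc7a2 was found in 197 of 210 stromal-like cells, and 167 of these cells held both Slc7a2 and Nos2. Independence would give 159.5 cells with both, and at 1000 UMIs 60 of 198 stromal-like cells held both, against 52.1. In macrophage-like cells Slc7a2 was at 4.64% of its stromal-like level, above the 0.327% of Prg4 and the 0.492% of Dcn in the same cells. In neutrophil-like cells it was at 1.19%, also above both.

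Ass1, which recycles citrulline, was shared by both of these classes. Its level was 97.9 CPM (89.8 to 107) in stromal-like and 96.9 CPM (73.2 to 126) in macrophage-like cells, a ratio of 1.01 (0.767 to 1.36). Neutrophil-like cells were far lower at 1.97 CPM (1.19 to 3.08, 19 UMIs in 15 of 1889 cells). Of these UMIs 17 were from OVX cells (3.07 CPM) and 2 from sham cells (0.577 CPM). Of 210 stromal-like cells 108 held Ass1, and 99 of these also held Nos2, where independence would give 87.4. At 1000 UMIs 5 of 198 stromal-like cells held both, against 5.66. The macrophage-like value rested on 56 UMIs in 20 of 63 cells.

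The genes of polyamine synthesis leaned to stromal-like cells. Odc1 was at 244 CPM there (231 to 257), 57.1 CPM in macrophage-like cells (39.3 to 80.2) and 17.2 CPM in neutrophil-like cells (14.7 to 20.05). Srm was at 125 CPM in stromal-like cells (115 to 134), 10.4 CPM in macrophage-like cells (3.81 to 22.6, 6 UMIs) and 0.726 CPM in neutrophil-like cells (0.292 to 1.496, 7 UMIs). The stromal-like level was 4.27 times the macrophage-like one for Odc1 (3.02 to 6.23) and 12.005 times for Srm (5.49 to 32.8). Stromal-like cells held UMIs of both genes in 144 of 210 cells, where independence would give 123.9. With cells thinned to 1000 UMIs, 2 of 198 stromal-like cells held both, against 3.18. Cycling cells held Odc1 at 68.4 CPM (57.2 to 81.03), with an interval that overlapped the macrophage-like one, and Srm at 39.1 CPM (30.8 to 48.9).

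Sat1, of polyamine catabolism, had the reverse order. It was at 985 CPM in neutrophil-like cells (965 to 1005), 581 CPM in macrophage-like cells (521 to 647) and 180 CPM in stromal-like cells (169 to 192), and no 2 of these intervals overlapped. Neutrophil-like cells were 1.69 times macrophage-like (1.52 to 1.89) and 5.46 times stromal-like cells (5.11 to 5.84). Of 1889 neutrophil-like cells 1707 held Sat1 (90.4%), and 61.4% did at 1000 UMIs (59.0 to 63.7), against 44.3% of macrophage-like (31.5 to 57.6) and 19.7% of stromal-like cells (14.4 to 25.9). Across the neutrophil-like clusters Sat1 varied less than Arg2, from 792 CPM in the Ecm1 cluster to 1175 CPM in the Gm12840 cluster.

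By the overlap of the cells that held each gene at 1000 UMIs (Jaccard coefficient, over 2178 cells of 1 library), each member was set beside the genes most like it. For Arg1 the nearest included Pf4 (0.307) and Msr1 (0.259), on 27 and 28 shared cells. Nos2 was nearest to Clu (0.346), Bgn (0.331) and Tsc22d1 (0.321), and Slc7a2 to Clic4 (0.385), Ccn2 (0.379) and Pmepa1 (0.358). Arg2 lay nearest to Clec4d (0.365), Cd300lf (0.344) and Btg1 (0.344). Sat1 lay nearest to Tmsb4x (0.568), S100a8 (0.563) and S100a9 (0.560), genes found in most cells. Odc1 was nearest to Eef1g (0.148), Sox9 (0.142) and Bmp2 (0.132), and Ass1 to Igfbp7 (0.157), Cavin1 (0.125) and Pno1 (0.119). Srm was nearest to Snrpd1 (0.126), Snhg15 (0.119) and Prss23 (0.118). The pairs of Odc1, Ass1 and Srm rested on 5 to 31 shared cells at coefficients of 0.157 or less and are weak.

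OVX and sham cells were then compared within each class, leaving out genes under 20 CPM in both conditions. In macrophage-like cells, Arg1 was lower in OVX by at least 1.5-fold, 1 of 6 members with this level, beside 24.2% of all 5976 genes, and 0 of 6 were higher, beside 20.7%. In stromal-like cells, Odc1 was lower in OVX, 1 of 6 members beside 8.82% of 6043 genes, and 0 of 6 were higher, beside 6.47%. In neutrophil-like cells, Arg1 was higher in OVX, 1 of 3 members beside 6.82% of 4005 genes, and 0 of 3 were lower, beside 6.47%. The macrophage-like class held only 17 OVX and 41 sham cells, and its count of members lower in OVX ranged from 0 to 4 under other settings. A lower level could also come from a different make-up of the class, which cannot be told apart from a lower level per cell with 1 pool per condition.

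**Figure D2:**
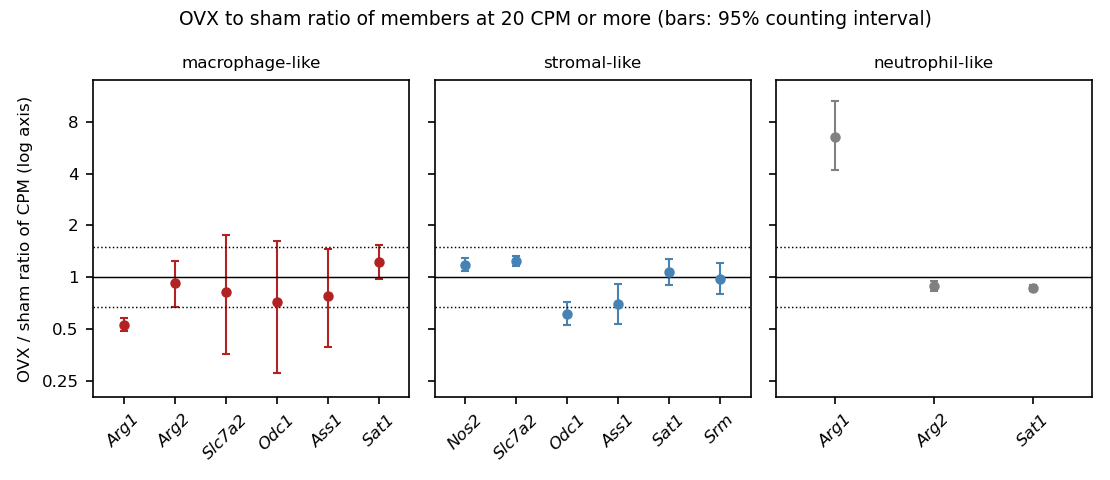
Ratio of OVX to sham level (log axis) of each member that reached 20 CPM in OVX or sham, in macrophage-like, stromal-like and neutrophil-like cells; bars are the 95% counting interval of the ratio, dotted lines 1.5-fold either way. Arg1 lies at 0.529 in macrophage-like and 6.49 in neutrophil-like cells, and Odc1 at 0.612 in stromal-like cells.

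Arg1 in macrophage-like cells was at 4163 CPM in OVX (3862 to 4480, 711 UMIs in 13 of 17 cells) and at 7867 CPM in sham (7587 to 8154, 2990 UMIs in 34 of 41 cells). The ratio of OVX to sham was 0.529 (0.487 to 0.574). Neutrophil markers also differed, and their sum went the other way: of the 13 in the list, 8 were higher and 4 lower in OVX macrophage-like cells. Their sum was 55960 CPM in OVX and 15512 CPM in sham, with S100a8 at 24871 CPM and 6051 CPM. By cell this sum ran from 2147 to 226170 CPM in OVX, with a median of 10830 CPM, and from 1204 to 174390 CPM in sham, with a median of 4400 CPM. The macrophage markers summed to 2646 CPM in OVX and 2442 CPM in sham. The part of the neutrophil markers in the Arg1 difference was not tested. Single OVX cells ran from 0 to 17041 CPM with a median of 2052 CPM, and single sham cells from 0 to 22183 CPM with a median of 5208 CPM, so the conditions overlapped over most of their range. The 5 highest OVX cells gave 78.5% of the OVX Arg1 UMIs. With every cell given the same weight the log2 difference was -0.36 in place of -0.92 and no longer passed 1.5-fold. The share of cells with Arg1 at 1000 UMIs was 68.8% in OVX (41.3 to 89.0) and 78.0% in sham (62.4 to 89.4), a difference within the intervals.

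No other member passed 1.5-fold in macrophage-like cells. Arg2 was at 363 CPM in OVX (278 to 465) and 395 CPM in sham (334 to 463), a ratio of 0.920 (0.673 to 1.24). Sat1 was at 685 CPM (567 to 821) and 558 CPM (485 to 638), a ratio of 1.23 (0.971 to 1.55). Slc7a2, Odc1 and Ass1 had 10, 8 and 14 UMIs in OVX cells, and their ratios, 0.824 (0.356 to 1.76), 0.712 (0.278 to 1.63) and 0.779 (0.391 to 1.46), were not resolved at this depth. For Nos2 this class held 0 UMIs from OVX and 1 from sham.

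Arg1 in neutrophil-like cells went the other way. It was at 41.2 CPM in OVX (36.0 to 46.9, 228 UMIs) and 6.35 CPM in sham (3.98 to 9.61, 22 UMIs), a ratio of 6.49 (4.18 to 10.6). The Arg1 UMIs came from few cells: 56 of 922 OVX cells (6.07%) and 12 of 812 sham cells (1.48%), and at 1000 UMIs from 2.61% (1.66 to 3.89) and 0.272% (0.0330 to 0.979). Of these cells, 15 in OVX and 1 in sham held 5 or more Arg1 UMIs, with 31 in the highest OVX and 11 in the highest sham cell. Pf4 was also held by 3 of the 56 OVX cells and by 10 of the 13 OVX macrophage-like cells with Arg1. These sets are not alike, since the 56 cells held 228 Arg1 UMIs and the 13 cells held 711. The source of the Arg1 UMIs in neutrophil-like cells was not tested. The macrophage markers summed to 121 CPM in OVX and 75.6 CPM in sham neutrophil-like cells, with 8 of 13 higher and 1 lower in OVX, and their part was not tested. Per Pf4 UMI there were 9.12 Arg1 UMIs in OVX neutrophil-like cells and 0.756 in OVX macrophage-like cells. In sham these values were nearer, at 2.2 and 1.37, the former from 22 Arg1 and 10 Pf4 UMIs. The OVX cells with Arg1 were deeper, at a median of 7615 UMIs against 4261 in the other OVX cells of the class. In sham the medians were 3936 and 3299.5 UMIs.

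Most of these cells were in 1 cluster. The Retnla cluster, led by Retnla, which encodes resistin-like alpha, and by the stefin genes Stfa2 and Stfa3, made up 28.9% of OVX and 2.83% of sham neutrophil-like cells. Its 266 OVX cells held 162 Arg1 UMIs in 30 cells (11.3%), or 63.8 CPM (54.4 to 74.5). Of these UMIs, 100 were in 5 cells. The 23 sham cells of the cluster held 0. At this depth that allows a share of cells with an Arg1 UMI of up to 13.04%, by 3 counts over the cells. The OVX share lay under this limit, so the share of cells did not separate the conditions here. Against a floor of 3 counts over the sham cells of the cluster, the OVX level was at least 5.10-fold higher by UMIs. The counting interval of the ratio began at 4.10, and both values take UMIs as independent. In the Retnlg cluster Arg1 was at 19.7 CPM in OVX (9.86 to 35.3, 11 UMIs in 4 cells) and 2.66 CPM in sham (0.725 to 6.81, 4 UMIs in 4 cells). Of these 11 OVX UMIs, 8 came from 1 cell. In the Ecm1 cluster 23 UMIs in OVX stood against 0 in sham, where only 16 cells were sham.

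The Gm42418 cluster had the opposite direction. In the Gm42418 cluster Arg1 was at 32.6 CPM in OVX (19.0 to 52.2, 17 UMIs) and 109 CPM in sham (59.4 to 182, 14 UMIs), and 11 of these 14 sham UMIs came from 1 cell. This cluster was shallow, with a median of 2341 UMIs, and the Gm12840 cluster had a median of 2652 UMIs. In the Gm42418 cluster 120 of 140 OVX cells and 45 of 76 sham cells had at least 1000 UMIs. In the Gm12840 cluster 272 of 287 OVX cells and 207 of 234 sham cells did. The part of depth in the Arg1 direction was not tested. Of the barcodes of the Gm42418 cluster 8.05% carried both hashtags, whereas the other neutrophil-like clusters had 1.12% to 2.68%. Such barcodes took no part in the OVX and sham values. Without the Gm42418 cluster the ratio of the class was 17.6 (8.75 to 41.2), without the Retnla cluster it was 3.23 (1.97 to 5.50), and without both it was 7.66 (3.599 to 18.7). With the 6 clusters given equal weight the log2 difference was 0.65 in place of 2.70.

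**Figure D3:**
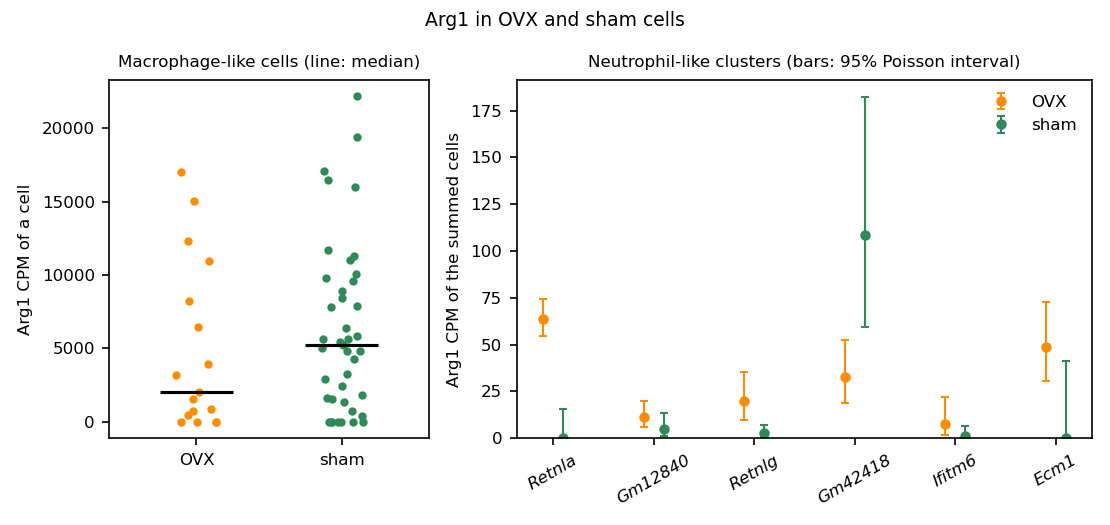
Left, Arg1 level in CPM of each macrophage-like cell from OVX and sham mice, with the median as a line (2052 CPM and 5208 CPM); right, Arg1 level in CPM of the summed OVX and sham cells of the 6 neutrophil-like clusters, with 95% Poisson intervals. OVX is above sham in 5 of the 6 clusters and below it in the Gm42418 cluster, and the intervals of OVX and sham lie apart in the Retnla, Retnlg and Gm42418 clusters. In the Retnlg cluster 8 of 11 OVX UMIs, and in the Gm42418 cluster 11 of 14 sham UMIs, came from 1 cell.

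Arg2 and Sat1 in neutrophil-like cells were slightly lower in OVX. Arg2 was at 405 CPM in OVX (389 to 422) and 457 CPM in sham (435 to 481), a ratio of 0.886 (0.830 to 0.945). Sat1 was at 924 CPM (899 to 950) and 1069 CPM (1035 to 1104), a ratio of 0.864 (0.829 to 0.902). For Arg2 the clusters did not share 1 direction: it was lower in OVX in the Gm12840 cluster, at 677 CPM (628 to 729) against 901 CPM (829 to 977), and higher in OVX in the Retnla cluster, at 334 CPM (312 to 357) against 209 CPM (155 to 275). In the Retnlg cluster the 2 values, 445 CPM (392 to 504) and 465 CPM (431 to 500), had overlapping intervals. Without the Retnla cluster the log2 difference of Arg2 was -0.03 in place of -0.18. Sat1 was lower in OVX in the Gm12840 cluster, at 1043 CPM (982 to 1107) against 1394 CPM (1304 to 1489), and overlapped in the Retnla cluster, at 897 CPM (860 to 935) and 872 CPM (758 to 999).

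**Figure D4:**
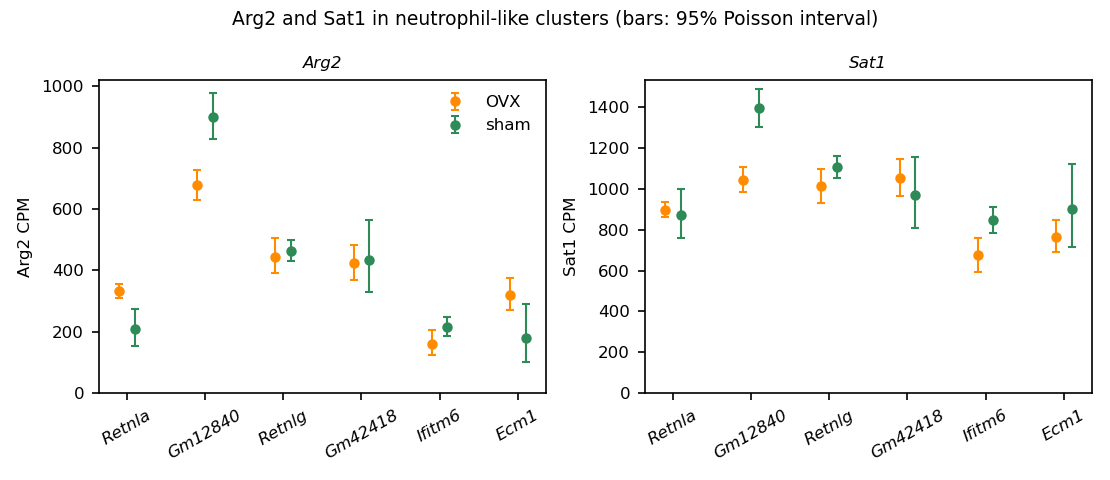
Level in CPM of Arg2 (left) and Sat1 (right) in the summed OVX and sham cells of the 6 neutrophil-like clusters, with 95% Poisson intervals. In the Gm12840 cluster OVX is below sham for both genes; Sat1 in OVX is at like levels there (1043 CPM) and in the Gm42418 cluster (1054 CPM), and Arg2 in the Retnla cluster is above sham in OVX.

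In stromal-like cells, 38 were OVX and 54 sham, while 112 were above the cutoff of neither hashtag. Nos2 was at 783 CPM in OVX (735 to 832) and 664 CPM in sham (625 to 705), a ratio of 1.18 (1.08 to 1.29), which turned to a log2 difference of -0.13 under the hashtag rule described below. Single OVX cells ranged from 0 to 4863 CPM with a median of 522 CPM, and single sham cells from 0 to 3204 CPM with a median of 419 CPM. Slc7a2 was at 1548 CPM in OVX (1481 to 1617) and 1247 CPM in sham (1193 to 1303), a ratio of 1.24 (1.17 to 1.32). Neutrophil markers summed to 4385 CPM in OVX and 1884 CPM in sham stromal-like cells, with medians by cell of 1611 and 1648 CPM, and their part was not tested. Neither Nos2 nor Slc7a2 reached 1.5-fold, and both conditions overlapped almost wholly by cell.

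Odc1 had the largest fold difference among stromal-like members when UMIs were summed. It was at 197 CPM in OVX (174 to 223, 255 UMIs) and 322 CPM in sham (295 to 351, 516 UMIs), a ratio of 0.612 (0.525 to 0.713). Per cell the median was 176 CPM in OVX and 249 CPM in sham, with ranges from 0 to 1019 CPM and from 0 to 1363 CPM. Where hashtags were called by at least 80% of 10 or more hashtag UMIs, 28 stromal-like cells were OVX and 113 sham, the log2 difference was -0.54 in place of -0.71, and it no longer passed 1.5-fold. With equal weight per cell it was -0.47, again short of 1.5-fold, while Ass1 was at -0.87 and passed. Ass1 was at 68.8 CPM (55.2 to 84.6) and 97.9 CPM (83.2 to 115), a ratio of 0.702 (0.535 to 0.916). Srm, at 132 and 135 CPM, and Sat1, at 189 and 178 CPM, had ratios of 0.981 (0.798 to 1.20) and 1.06 (0.894 to 1.27).

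Not all members were at like levels in the stromal-like cells without a hashtag call. Nos2 was at 960 CPM (921 to 1000) in them, above both conditions, and Odc1, at 218 CPM (199.98 to 238), was nearer to OVX. Ass1 was at 113 CPM (100.2 to 128), Slc7a2 at 1372 CPM (1326 to 1420), Srm at 117 CPM (103 to 131) and Sat1 at 176 CPM (160.0 to 194). Prg4 in the same cells was at 34890 CPM, compared with 23034 CPM where the call was OVX and 14589 CPM where it was sham. Its part in the values of the members was not tested.

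**Figure D5:**
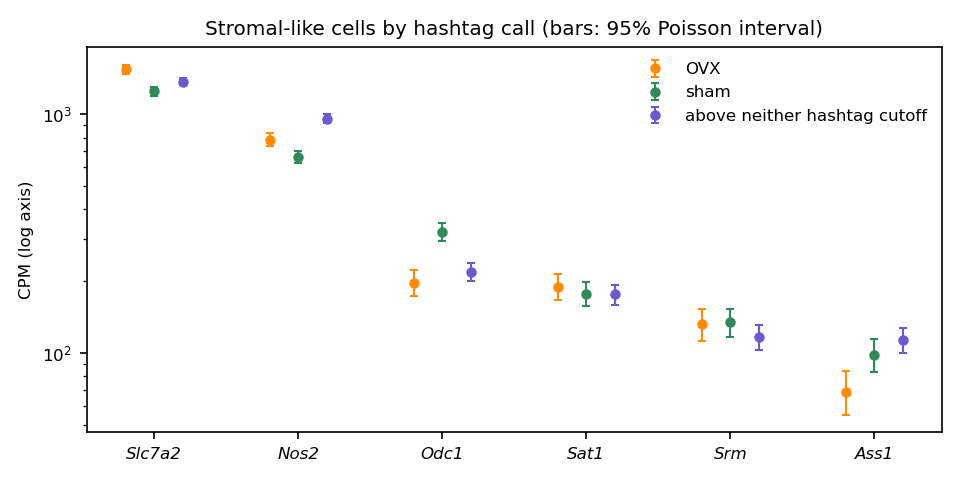
Level in CPM (log axis) of 6 members in stromal-like cells called OVX, called sham, and above the cutoff of neither hashtag, with 95% Poisson intervals. Odc1 is at 197 CPM in OVX, 322 CPM in sham and 218 CPM in cells of neither call, and Nos2 is highest in cells of neither call at 960 CPM.

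The wider pathway was read from a list of 53 genes by role, of which the members are 8 and 44 others were in the files. Of these 44, 27 were at 20 CPM or more in a class. By the rule of 2-fold over both other classes 9 were highest in stromal-like cells, 4 in macrophage-like cells and 1 in neutrophil-like cells, beside 25.2%, 8.65% and 7.66% of all genes. Between OVX and sham, 4 of 20 were higher and 3 of 20 lower in OVX in macrophage-like cells, 1 and 2 of 24 in stromal-like cells, and 0 of 9 either way in neutrophil-like cells, near the shares of all genes given above.

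Other genes of arginine import and exchange differed in the class where they were highest. Slc7a1, which encodes the carrier CAT1, was at 149 CPM in stromal-like, 13.8 CPM in macrophage-like and 2.18 CPM in neutrophil-like cells. Slc3a2, the heavy chain shared by amino acid exchangers, was at 548, 284 and 199 CPM in the same order, and passed no 2-fold rule. Slc7a7, which encodes a light chain that exports cationic amino acids, was highest in macrophage-like cells at 27.7 CPM.

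Pts, which encodes a synthase of the nitric oxide synthase cofactor tetrahydrobiopterin, did not follow Nos2. It was at 384 CPM in neutrophil-like, 79.6 CPM in macrophage-like and 30.5 CPM in stromal-like cells. In macrophage-like cells it was 4.15 times higher in OVX, from 28 UMIs in OVX and 15 in sham, while the summed neutrophil markers of these cells were 3.61 times higher. Their part in the Pts value was not tested. Asl, which completes the return of citrulline to arginine, was at 24.2 CPM in macrophage-like cells and 3.47 CPM in stromal-like cells, unlike Ass1.

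Among the polyamine genes, Amd1, which encodes the decarboxylase that feeds spermidine synthesis, was highest in stromal-like cells at 46.8 CPM. Oaz1 and Azin1, the antizyme and its inhibitor that set ornithine decarboxylase turnover, were spread over the classes, Oaz1 at 687, 511 and 592 CPM and Azin1 at 201, 126 and 192 CPM in macrophage-like, stromal-like and neutrophil-like cells. Smox, encoding spermine oxidase, was at 353, 154 and 193 CPM in that order. Eif5a, which encodes the factor that takes up spermidine as hypusine, was at 393, 529 and 187 CPM. The polyamine transporter gene Atp13a3 was at 106, 72.3 and 24.4 CPM, and in stromal-like cells it was at a ratio of 0.654 in OVX to sham, from 75 and 142 UMIs.

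A second list held 20 receptors, transcription factors and cytokines known to bear on Arg1 or Nos2. In neutrophil-like cells 2 of 15 at 20 CPM or more were higher in OVX by at least 1.5-fold, beside 6.82% of all genes, and 0 of 15 lower, beside 6.47%, and both of the higher ones encode chains of the receptors for interleukins 4 and 13. Il4ra was at 112 CPM in OVX (103 to 121, 620 UMIs) and 53.9 CPM in sham (46.5 to 62.2, 187 UMIs), a ratio of 2.08 (1.76 to 2.46). Il13ra1 was at 121 CPM (112 to 131, 670 UMIs) and 38.7 CPM (32.4 to 45.8, 134 UMIs), a ratio of 3.13 (2.60 to 3.80).

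Both receptor genes were higher in OVX in each of the 6 neutrophil-like clusters. For Il4ra the ratio ran from 1.42 (0.865 to 2.30) in the Ifitm6 cluster to 2.43 (1.34 to 4.92) in the Retnla cluster. For Il13ra1 it ran from 1.79 (1.07 to 3.17) in the Gm42418 cluster to 6.28 (2.42 to 23.2) in the Retnla cluster, where sham held 4 UMIs. In the Gm12840 cluster, the one with the most cells, Il13ra1 was at 194 CPM in OVX (169 to 223) and 77.8 CPM in sham (57.7 to 103). The interval of the ratio included 1 in 3 clusters for Il4ra and in 2 for Il13ra1.

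In stromal-like cells the same receptor genes were also past 1.5-fold in OVX, Il4ra from 32 and 24 UMIs at a ratio of 1.65 and Il13ra1 from 90 and 69 UMIs at 1.62, with overlapping intervals for Il4ra, and these were 2 of 10 listed genes, beside 6.47% of all genes. In macrophage-like cells they were at 1.37 and 1.04, while 4 of 17 listed genes were higher (among them Stat6, Ifngr2 and Irf1), beside 20.7% of all genes, and 2 lower (Myd88 and Rela, from 8 and 2 UMIs in OVX), beside 24.2%. The intervals of OVX and sham overlapped for each of these 5 named genes. Irf8, a factor of the monocyte line, was at 208 CPM in macrophage-like cells and at 1.24 CPM or less in the other classes, and Il1b was at 771 CPM in macrophage-like, 317 CPM in neutrophil-like and 4.20 CPM in stromal-like cells. Klf4 was highest in stromal-like cells at 421 CPM. Cebpb, which binds the Arg1 enhancer, was level between macrophage-like and neutrophil-like cells at 1531 and 1522 CPM.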

How the data were processed

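The authors aligned reads to mm10 and counted UMIs with Cell Ranger (6.0.1 in the submitters' processing notes, 6.0.0 in the matrix header), and deposited raw counts per gene and barcode, hashtag counts included. Every barcode was kept. Hashtags were called with HTODemux (Seurat 5.3.0, positive quantile 0.99). Louvain clustering (scanpy 1.11.5, about 2000 variable genes without the listed genes, 30 components, 15 neighbors) gave 10 clusters of at least 10 cells. The macrophage-like, stromal-like and cycling clusters had at least 3 markers of their class at 20 CPM or more and 5-fold over all other cells. None of the neutrophil-like clusters met this rule. They were named by at least 3 neutrophil markers at 100 CPM or more, which every other cluster also had. The unnamed cluster was shallow, with no neutrophil marker among its 10 leading genes. A partition into 6 clusters had been planned as the main one, but joined macrophage-like with Cd74-high cells, so 10 clusters were reported, a choice made after seeing the data. Doublets were kept in class levels; Scrublet marked 1 barcode. Counts were summed per class and condition without a test, with exact Poisson and Clopper-Pearson intervals. Shares were also taken after thinning to 1000 UMIs, leaving out 171 shallower barcodes. Free RNA was not subtracted. A mean per condition rests on 1 pool of 20 mice; scripts were tested on simulated data. Genes named outside the members are those of 2 lists at 100 CPM or more in a class or past 1.5-fold at 20 CPM. The members and lists were chosen with earlier results of these data known. The hashtag library's own file was not used here. Some listed genes are not reported here. Other settings tried were the hashtag rule, clustering choices, filters, weights, thresholds and scaling.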

Additional observations from a re-analysis of the deposited data

Results flagged for a closer look

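The direction of Arg1 between OVX and sham differed between classes. The log2 difference was -0.92 in macrophage-like and 2.70 in neutrophil-like cells. With 1 pool per condition, this difference between the classes was not tested.

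Stromal-like cells above the cutoff of neither hashtag took no part in the comparison of OVX with sham, and 6 members were well above the limit that a count of 0 allows in them. These were Slc7a2 at 1372 CPM, Nos2 at 960 CPM, Odc1 at 218 CPM, Sat1 at 176 CPM, Srm at 117 CPM and Ass1 at 113 CPM.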

How the results depend on the processing

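The partition into 6 clusters had been planned as the reported one and became an alternative after seeing the data, when the values without the Retnla or the Gm42418 cluster were also added. The count of members highest in macrophage-like cells (1) and in stromal-like cells (4) moved by no more than 1.5 times under any of the 11 other settings. In neutrophil-like cells the count was 1 in place of 0 with Leiden clustering, 1000 variable genes, 30 neighbors, the barcode filter (500 genes, 10% mitochondrial UMIs) or scaling by the median ratio between classes (1.22 for macrophage-like and 1.16 for stromal-like over neutrophil-like cells), and 2 with 6 clusters or without doublets; the cause was not tested. The count of members lower in OVX in macrophage-like cells was 1 and became 2 with the 80% hashtag rule, with the listed genes kept for clustering, without the top cell or with no CPM minimum, 3 with 1000 variable genes, 30 neighbors, 6 clusters or without Scrublet doublets, 4 with Leiden clustering or the barcode filter, and 0 with equal weight per cell or a 2-fold rule. The count higher in OVX there was 1 with equal weight per cell or no CPM minimum. In stromal-like cells the count lower in OVX was 0 with the 80% hashtag rule or a 2-fold rule and 2 without the top cell, and it stayed at 1 with equal weight per cell, where Ass1 (-0.87) passed and Odc1 (-0.47) did not. In neutrophil-like cells the count higher in OVX was 0 at a 50 CPM minimum and 2 with none. Arg1 there reversed within the Gm42418 cluster, to a log2 difference of -1.74. Of 190 log2 differences under other settings, that one included, 147 stayed within the counting interval of the reported value, as did 181 of 240 values of CPM by class. The nearest gene by cell overlap was another one in 9 of 14 repeats at 500 UMIs or without thinning. No paired analysis was possible because each condition was 1 pool. Macrophage-like cells limit the depth, with 170802 OVX UMIs in all.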
